A study of Mus musculus with 18 samples.

Results

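The clustered protocadherins are cadherin-like adhesion receptors encoded side by side on mouse chromosome 18 in an alpha, a beta and a gamma cluster. The genes examined were those whose symbol starts with Pcdha, Pcdhb or Pcdhg and that had at least 10 raw counts summed over the 18 libraries of the series. This took in 27 of the 58 clustered protocadherin genes of the count table, which holds 53801 genes in all. They were 1 of the 14 alpha genes (Pcdhac2), 5 of the 22 beta genes (Pcdhb14, Pcdhb17, Pcdhb19, Pcdhb20 and Pcdhb22) and 21 of the 22 gamma genes. All are annotated as protein-coding except the gamma gene Pcdhgb8, which is annotated as a polymorphic pseudogene. Nearest to the limit, Pcdhb19 was taken with 10 counts and Pcdhb20 with 18, whereas Pcdhb7 was left out with 9 counts and Pcdhb1 and Pcdhb11 with 8 counts each. In the GRCm38 build, the family spans 36930184 to 37841873 of chromosome 18 on the plus strand.

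RNA-seq was done on mouse embryonic stem cells (ESCs) of 2 lines, WT, which is E14TG2a, and iEZR_CA, in E14 cells with a PiggyBac construct in which doxycycline switches on a phosphomimetic ezrin followed by mCherry. Cells of each line were collected in 2i+LIF, which holds ESCs in naive pluripotency (ESC), and after 24 h (T24) and 48 h (T48) of exit in N2B27, with 3 libraries in each of the 6 groups. Doxycycline was given to iEZR_CA cells overnight before exit and is not stated for WT cells, so drug and transgene vary together and cannot be told apart. Whether the iEZR_CA line is a single clone is not given in the sources used here.

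Clustered protocadherins give single neurons a surface identity, because each neuron transcribes its own small set of them and like proteins bind each other between cells. In the alpha and gamma clusters, each gene contributes a variable first exon with its own promoter, which is spliced to constant exons shared by the whole cluster, whereas beta genes are single exons. The C-type genes at the ends of the alpha and gamma clusters are chosen less randomly than the A and B types, and DNA methylation, CTCF and cohesin are known to act on promoter choice.

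Reads on genes ranged from 10940752 to 33276622 per library (median 23096248). Ezr, which encodes ezrin, was 2.11, 2.70 and 1.61 times as high in iEZR_CA as in WT at ESC, T24 and T48, without overlap between libraries (exact permutation test, p = 0.1 each, the smallest that 3 against 3 libraries allow). Raw counts of replicates differed by more than sampling noise in all 18 replicate pairs (chi-square per degree of freedom 1.61 to 3.59), so no library was a copy of another. Levels below are normalized counts (raw counts divided by the DESeq2 size factor of the library), given as mean ± SD with n = 3. Tests are edgeR quasi-likelihood tests with Benjamini-Hochberg adjustment over 18469 genes, and a gene is called at an adjusted p under 0.05. In bulk RNA, fewer cells expressing a gene and less RNA per cell cannot be told apart.

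The gamma cluster held nearly all protocadherin reads in these cells. Over all libraries it had 9227 raw counts, which is a rate of 23.4 CPM of gene counts, against 261 counts (0.662 CPM) for beta and 78 (0.198 CPM) for alpha. Of the 22 beta genes, 18 had at most 3 counts in every library and 3 had none, and of the 14 alpha genes 13 had at most 3 counts and 7 had none. In the gamma cluster, 21 of 22 genes exceeded 3 counts in some library. The beta genes, which have no shared constant exons, were therefore close to the floor of detection, taken as 3 counts in a library. They carried less information than gamma. Of the beta members, Pcdhb22 overlaps the adjacent Pcdhb21 and has 6154 of its 6609 exon bases to itself. A floor of 3 counts corresponds to 0.274 CPM in the shallowest library.

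Pcdhgc3, a C-type gamma gene, was the highest member per length. It stood at a mean level of 63.9 normalized counts per kilobase of exon that no other gene shares on either strand, the length used for all levels per kilobase. Next in level per kilobase came Pcdhga1 (22), Pcdhga11 (19.1), Pcdhgb8 (16.8), Pcdhga12 (12.6) and Pcdhga2 (9.55). The lowest gamma members per kilobase were Pcdhgc4 (1.35), another C type, and Pcdhga6 (0.45). Pcdhac2, the C-type gene that closes the alpha cluster, stood at 1.12, Pcdhb22 at 0.775 and Pcdhb17 at 0.553, and the lowest member was Pcdhb19 at 0.0753. The most abundant gamma genes thus lay at the 2 ends of the cluster, as the plot of levels in cluster order shows.

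**Figure D1:**
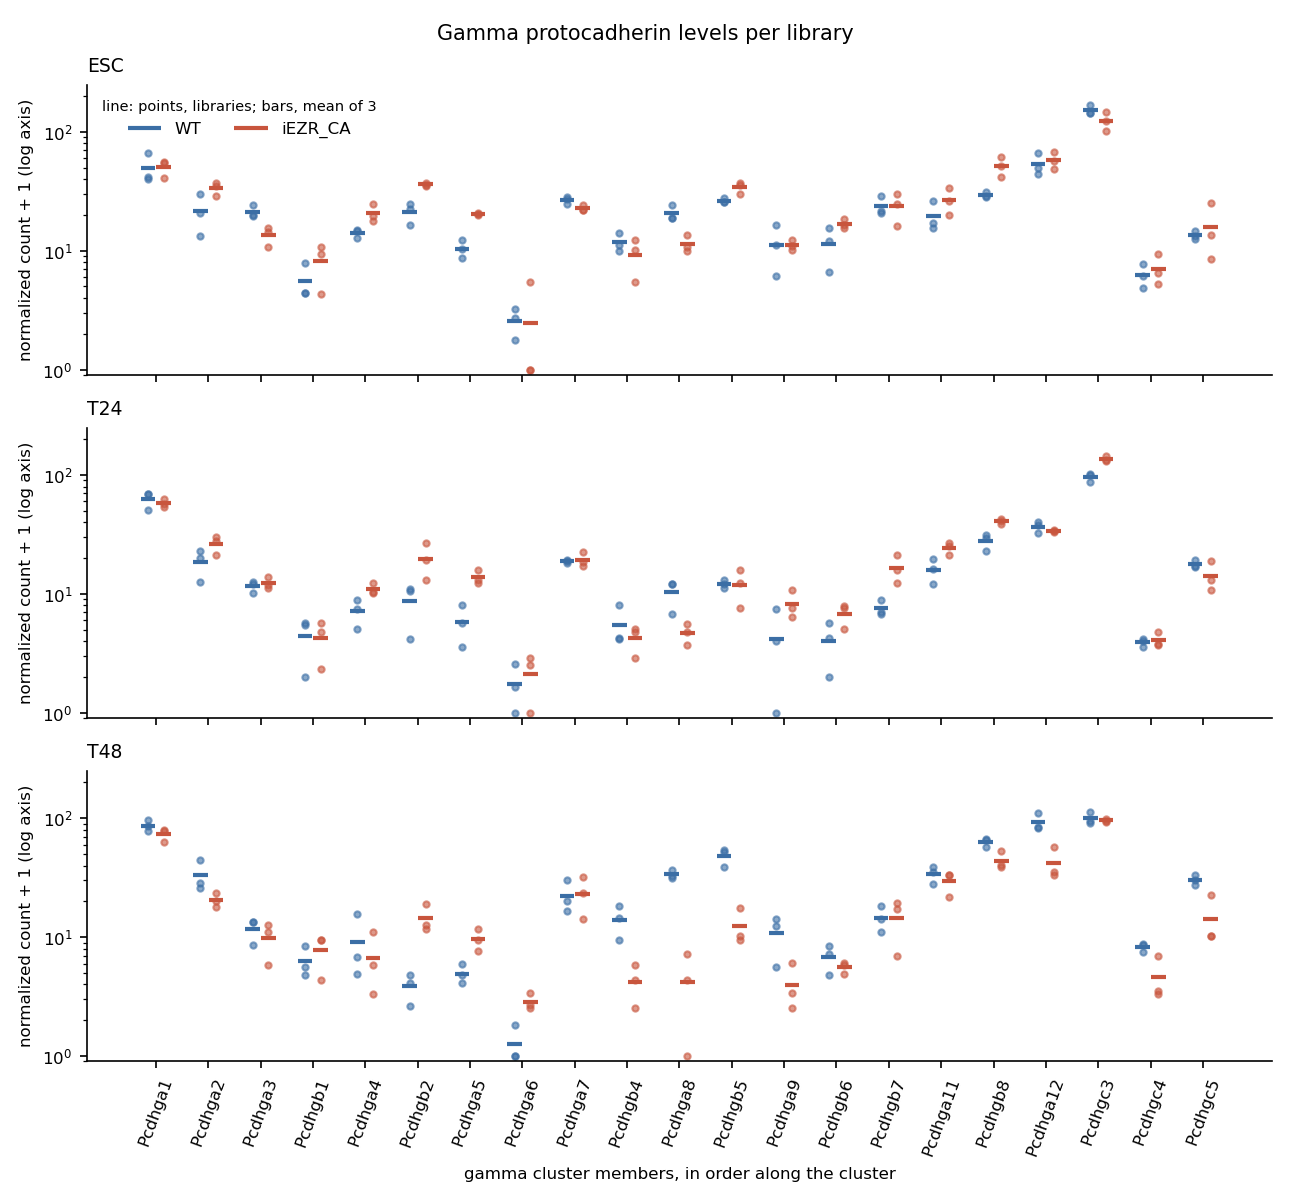
Normalized count + 1 (log axis) of the 21 gamma members in their order along the cluster, with 1 panel for each stage. Points are libraries and bars are means of 3 (blue WT, red iEZR_CA). Pcdhgc3 has the highest mean in every group, overlapping with Pcdhga12 and Pcdhga1 in WT at T48. At T48 the libraries of the lines lie apart at Pcdhgb2, Pcdhgb4, Pcdhga8 and Pcdhgb5, and overlap at Pcdhga9.

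The summed gamma level was lower at T24 than at ESC in both lines, and at T48 the lines had parted. In WT it was 531 ± 43.1 at ESC, 361 ± 22.9 at T24 and 615 ± 80.9 at T48, and in iEZR_CA 576 ± 32.7, 452 ± 10.8 and 423 ± 9.51. At T48 the WT libraries had sums of 536 to 697 and the iEZR_CA libraries 412 to 430, without overlap. Sums were not tested and are given as a description. The part of this sum from A and B types was 479 ± 69.0 in WT and 311 ± 9.47 in iEZR_CA at T48, and that from the 3 C types was 135 ± 11.9 and 112 ± 9.32.

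**Figure D2:**
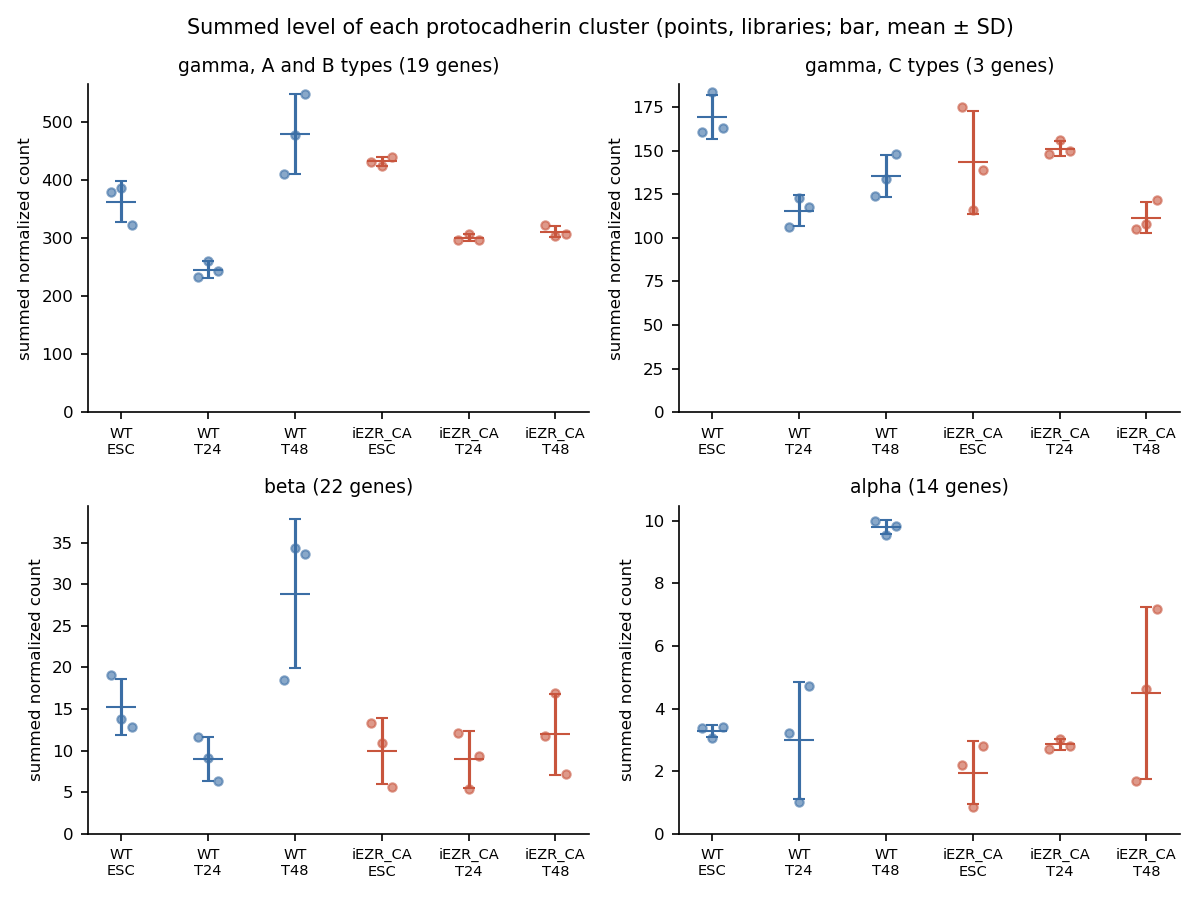
Summed normalized count of all genes of each class, with points for libraries and bars for mean ± SD of 3 libraries per group; the vertical axes start at 0 and differ between panels. The gamma A and B types reach 411 to 549 in WT at T48 and 304 to 322 in iEZR_CA, whereas beta stays at or below 34.4 and alpha at or below 10.

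Of the 27 members, 18 passed the filter on low counts and were tested, all of them gamma genes. The 9 others (Pcdhac2, the 5 beta members, Pcdhgb1, Pcdhga6 and Pcdhgc4) were too low. A call was common in these data, so each count of members is set beside the share of all tested genes called in the same comparison. Among 6290 genes in the same range of mean level as the 18 tested members, shares were lower than over all genes (37.7% to 61% for the comparisons of lines and of stages). Such shares were 21.5% at T24 and 28.5% at T48 for the interaction of line and time tested below.

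During the first 24 h of exit, gamma genes fell in WT cells. At T24 against ESC, 12 of 18 were called, all of them lower, where 65.4% of all genes were called and 33.6% were lower, and the median log2 fold change of the 18 was -0.99. Pcdhgb7 had 28.1, 20.7 and 19.6 normalized counts in the ESC libraries and 5.80, 6.06 and 7.88 at T24. All its T24 libraries were below all ESC libraries, and the log2 fold change was -1.82 ± 0.37 (SE; adjusted p = 1.5e-05). Pcdhgb2 went from 20.1 ± 4.29 to 7.64 ± 3.89 (log2 fold change -1.24 ± 0.34, adjusted p = 0.0012) and Pcdhgb5 from 25.4 ± 1.20 to 11.2 ± 0.91 (-1.21 ± 0.29, adjusted p = 0.00025). Pcdhgc3 fell too, from 151 ± 14.8 to 96.1 ± 8.01 (-0.70 ± 0.12, adjusted p = 6.6e-07). Pcdhga1, the gene at the start of the cluster, had a log2 fold change of 0.33 and was not called (adjusted p = 0.099). With the DESeq2 Wald test, 6 of the 12 calls remained, those of Pcdhgb2, Pcdhgb5, Pcdhgb6, Pcdhgb7, Pcdhga8 and Pcdhgc3, and with spike-in scaling 8 members were called. Pcdhga8 was called without each library in turn except WT T24 replicate 1 (adjusted p = 0.058).

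By T48, part of the gamma cluster in WT cells stood above its ESC level. Of 18 members, 13 were called against ESC, 8 higher and 5 lower, where 74.5% of all genes were called (37.1% higher and 37.4% lower). The 8 that rose were Pcdhga1, Pcdhga2, Pcdhga8, Pcdhgb5, Pcdhga11, Pcdhgb8, Pcdhga12 and Pcdhgc5, which include members from the start, the middle and the end of the cluster. Of these, DESeq2 did not call Pcdhga2 or Pcdhga8 (adjusted p = 0.11 and 0.12), and without WT T48 replicate 3 Pcdhga2, Pcdhga8 and Pcdhga11 were not called (adjusted p = 0.34, 0.059 and 0.073). Pcdhgc5, the last C-type gene, rose from 12.4, 11.5 and 13.6 to 26.3, 32.5 and 29.5 normalized counts. Its libraries did not overlap (log2 fold change 1.18 ± 0.31, adjusted p = 0.00043). Pcdhgb8 rose from 28.7 ± 1.48 to 62.3 ± 5.10 (1.10 ± 0.19, adjusted p = 4.4e-07) and Pcdhga12 from 52.5 ± 11.3 to 91.6 ± 15.7 (0.84 ± 0.17, adjusted p = 7.8e-06). Pcdhgb2 had 3.09, 3.82 and 1.64 normalized counts at T48, the lowest mean it had in any group (log2 fold change against ESC -2.87 ± 0.45, adjusted p = 5e-08). Its T48 level was not tested against T24, where WT replicate 3 had 3.15. Pcdhga3 (-0.84 ± 0.31, adjusted p = 0.013) and Pcdhgb7 (-0.84 ± 0.32, adjusted p = 0.015) were also lower than at ESC, but DESeq2 did not call either (adjusted p = 0.094 and 0.11). Pcdhga3 was not called without WT ESC replicate 2 (adjusted p = 0.064) and Pcdhgb7 without WT T48 replicate 1 (adjusted p = 0.11) or WT ESC replicate 1. Pcdhgc3 kept its lower level (98.7 ± 11.7, -0.63 ± 0.12, adjusted p = 4.4e-06), although with spike-in scaling its adjusted p was 0.069.

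In iEZR_CA cells, 7 of the 18 tested gamma genes fell in the first 24 h, and by T48 Pcdhga1 was the 1 tested member called above its ESC level. The other 11 were not called at T24 against ESC, where 56% of all genes were called and 28.9% were lower. The median log2 fold change of the 18 was -0.47. All 7 were also called lower in WT. Pcdhgb5 went from 33.3 ± 3.90 to 10.9 ± 4.16 (log2 fold change -1.65 ± 0.29, adjusted p = 1.4e-06), Pcdhgb2 from 35.1 ± 0.84 to 18.7 ± 6.73 (-0.97 ± 0.27, adjusted p = 0.0015) and Pcdhga12 from 56.8 ± 9.82 to 32.9 ± 0.53 (-0.75 ± 0.21, adjusted p = 0.0015). At T48 against ESC, 12 members were called, 1 higher and 11 lower, where 70.1% of all genes were called (35.2% higher and 35% lower). Pcdhga1 rose from 54.3, 40.2 and 53.2 to 78.6, 77.7 and 62.4 normalized counts (0.61 ± 0.17, adjusted p = 0.0014). Pcdhgb5 stayed down, at 11.5 ± 4.59 (-1.51 ± 0.28, adjusted p = 2.7e-06), as did Pcdhgb2, at 13.5 ± 3.92 (-1.43 ± 0.28, adjusted p = 7.8e-06). Pcdhga2 went from 32.8 ± 4.22 to 19.4 ± 2.77 (-0.75 ± 0.26, adjusted p = 0.0094), a call that was lost with DESeq2 (adjusted p = 0.069), with spike-in scaling (adjusted p = 0.12) and without iEZR_CA ESC replicate 2 (adjusted p = 0.054).

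**Figure D3:**
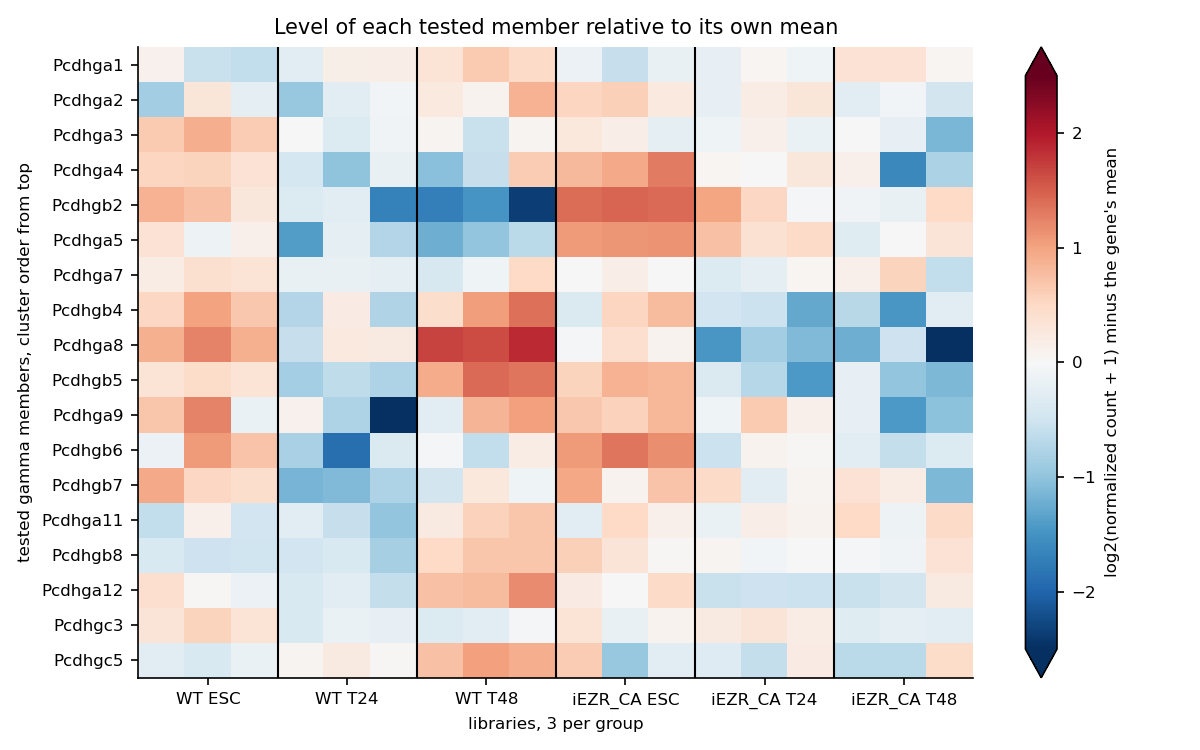
Log2(normalized count + 1) of each of the 18 tested members in each library, minus the gene's mean over the 18 libraries; red is above and blue below that mean, and colours saturate at 2.5. In WT, Pcdhga8 and Pcdhgb5 are darkest red at T48 and Pcdhgb2 is darkest blue, whereas in iEZR_CA Pcdhga8 and Pcdhgb5 are blue at T24 and T48.

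Naive ESCs of the 2 lines already differed in some gamma genes before exit. In 2i+LIF, 6 of 18 members were called between the lines, 4 higher and 2 lower in iEZR_CA, where 54.5% of all genes were called (26.4% higher and 28.1% lower). Pcdhgb8 had 30.3, 27.5 and 28.1 normalized counts in WT and 60.9, 50.2 and 40.6 in iEZR_CA, without overlap (log2 fold change 0.83 ± 0.20, adjusted p = 0.00024). Pcdhgb2 was higher too, at 35.1 ± 0.84 against 20.1 ± 4.29 (0.81 ± 0.26, adjusted p = 0.0057), and so was Pcdhga5, at 19.2 ± 0.39 against 9.42 ± 1.79 (1.04 ± 0.34, adjusted p = 0.0068). Pcdhga2 was higher in iEZR_CA (0.64 ± 0.26, adjusted p = 0.031), and Pcdhgc3 (-0.34 ± 0.12, adjusted p = 0.011) and Pcdhga8 (-0.90 ± 0.34, adjusted p = 0.022) were lower. Of these 6, the DESeq2 Wald test called Pcdhgb8 alone (adjusted p = 0.0045), with 0.079 for Pcdhgb2 and 0.073 for Pcdhga5. The calls of Pcdhga2, Pcdhga8 and Pcdhgc3 were each lost on leaving out any of several libraries, with adjusted p up to 0.18 without WT replicate 1, 0.11 without WT replicate 2 and 0.23 without iEZR_CA replicate 2.

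At T24 the called members were mostly higher in iEZR_CA. Of 18 members, 7 were called, 6 higher and 1 lower, where 60.9% of all genes were called (30.8% higher and 30.1% lower). Pcdhgc3 had 86.9, 102 and 99.3 normalized counts in WT and 134, 143 and 129 in iEZR_CA, so that the order of the lines at ESC was turned round (log2 fold change 0.52 ± 0.12, adjusted p = 0.00022). Pcdhgb7 had 5.80, 6.06 and 7.88 in WT and 20.2, 11.4 and 15.0 in iEZR_CA (1.22 ± 0.41, adjusted p = 0.0077). Both genes were called under each alternative run. Pcdhgb2 (1.08 ± 0.35, adjusted p = 0.0065) and Pcdhga5 (1.48 ± 0.43, adjusted p = 0.0025) were again higher, and DESeq2 called these 4 genes and no others. The call of Pcdhgb2 was lost without iEZR_CA replicate 1 (adjusted p = 0.05) and that of Pcdhga5 without WT replicate 1 (adjusted p = 0.073). Pcdhga2 (0.67 ± 0.29, adjusted p = 0.039) and Pcdhgb8 (0.52 ± 0.21, adjusted p = 0.026) were higher and Pcdhga8 (-1.13 ± 0.51, adjusted p = 0.049) was lower, but none of these 3 calls held with DESeq2 or without a filter on low counts. They were also lost on leaving out several libraries, with adjusted p up to 0.37 without WT replicate 1 for Pcdhga2, 0.08 without WT replicate 3 for Pcdhgb8 and 0.17 without WT replicate 2 for Pcdhga8.

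At T48 most called members were lower in iEZR_CA. Of 18 members, 10 were called, 2 higher and 8 lower, where 61.1% of all genes were called (31% higher and 30.1% lower), and the median log2 fold change of the 18 was -0.50. Pcdhga8, an A-type gene whose variable exon lies in the middle of the cluster (GRCm38 chromosome 18, 37725706 to 37841873 with the shared exons), had 31.7, 30.6 and 36.0 normalized counts in WT and 3.35, 6.16 and 0 in iEZR_CA. The lines were far apart, with a log2 fold change of -3.16 ± 0.38 (adjusted p = 5.2e-11), a level 8.94 times as high in WT. Its next gene along the cluster, Pcdhgb5 (37731009 to 37841873), had 37.9, 53.5 and 50.7 in WT and 16.7, 9.23 and 8.39 in iEZR_CA (log2 fold change -1.96 ± 0.26, adjusted p = 9.1e-10). Pcdhga12, the last A-type gene, had 81.1, 84.1 and 110 in WT and 32.6, 34.6 and 56.4 in iEZR_CA (-1.22 ± 0.17, adjusted p = 8.4e-09). None of these 3 genes had libraries that overlapped between the lines, as was so for 9 of the 18 tested members. The share of all genes without overlap is not given here, so this is a description. Pcdhgc5 was lower as well (29.4 ± 3.1 against 13.3 ± 7.14, -1.20 ± 0.31, adjusted p = 0.00054).

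Against that direction, Pcdhgb2 was higher in iEZR_CA at T48. It had 11.7, 10.8 and 18 normalized counts in iEZR_CA and 3.09, 3.82 and 1.64 in WT, a log2 fold change of 2.25 ± 0.50 (adjusted p = 6.8e-05). Of its variable exon (within 37689828 to 37841873), 17.9% of 50-base words also occur in annotated transcripts from other places of the genome, the largest share among members. That share was 11.6% for Pcdhgb5, 10.4% for Pcdhgb4, 4.25% for Pcdhga8 and 0 for Pcdhga12, Pcdhgc3 and Pcdhgc5. It was 16.9% for Pcdhgb1, 11.9% for Pcdhgb6 and 9.18% for Pcdhgb8. Reads of Pcdhgb2, Pcdhgb5, Pcdhgb4, Pcdhgb1, Pcdhgb6 and Pcdhgb8 are therefore the less certain. Not all B types had a large share, since that of Pcdhgb7 was 2.67%. The other gene higher at T48, Pcdhga5, had 8.65 ± 2.06 against 3.94 ± 0.92 (1.08 ± 0.48, adjusted p = 0.049), and its call was lost under DESeq2 (adjusted p = 0.14) and on leaving out any of 5 libraries (up to 0.19 without WT replicate 1).

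**Figure D4:**
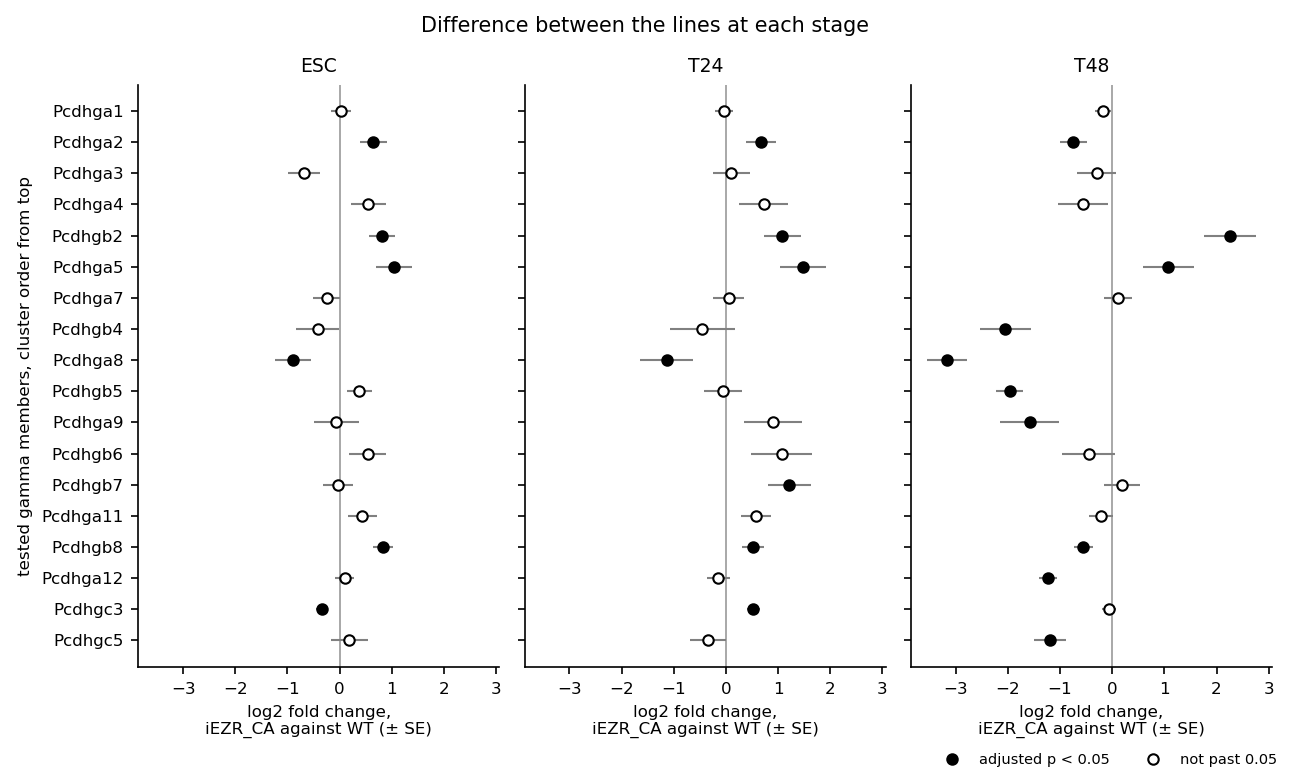
Log2 fold change of iEZR_CA against WT (± SE) for the 18 tested gamma members in cluster order, at each stage. Filled points have an adjusted p under 0.05 (edgeR quasi-likelihood test). At T48, Pcdhgb2 lies at 2.25, whereas Pcdhgb4, Pcdhga8, Pcdhgb5 and Pcdhga9, which are neighbours, lie between -1.58 and -3.16.

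A run of neighbouring genes was called in the same direction at T48. Pcdhgb4, Pcdhga8, Pcdhgb5 and Pcdhga9 follow each other along the cluster, and all 4 were called lower in iEZR_CA. Pcdhgb4 had 13.0 ± 4.35 in WT and 3.23 ± 1.63 in iEZR_CA (log2 fold change -2.05 ± 0.49, adjusted p = 0.00024), and Pcdhga9 had 9.73 ± 4.49 and 2.99 ± 1.81 (-1.58 ± 0.57, adjusted p = 0.013). The call of Pcdhga9 was lost with DESeq2 (adjusted p = 0.053), without WT replicate 3 (adjusted p = 0.17) and without iEZR_CA replicate 2. Libraries of the lines overlapped at Pcdhga9, with 4.64 in WT replicate 1 and 5.02 in iEZR_CA replicate 1. This stretch was picked after its values were seen and is given as a description. Its summed level in WT went from 65.9 ± 10.7 at ESC through 28.1 ± 4.52 at T24 to 103 ± 18 at T48, and in iEZR_CA from 62.1 ± 8.68 through 25.1 ± 5.67 to 20.8 ± 6.74. As a share of all gamma counts, the stretch held 16.7% ± 1.19 in WT and 4.92% ± 1.57 in iEZR_CA at T48, against 12.4% ± 1.19 and 10.9% ± 2.01 at ESC. The pair Pcdhgb2 and Pcdhga5, also chosen after its values were seen, had a share that went from 5.55% ± 0.78 to 1.11% ± 0.16 in WT and from 9.47% ± 0.72 to 5.22% ± 1.28 in iEZR_CA between ESC and T48. On either side of the stretch, Pcdhga7 had a T48 log2 fold change of 0.10 ± 0.27 and Pcdhgb6 of -0.45 ± 0.52, neither of them called, and their difference from the stretch was not tested.

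Over the 3 stages, 12 of the 18 tested members were called between the lines at 1 stage or more and 6 at none, where 83.6% of all tested genes were called at 1 stage or more. Pcdhgb2 and Pcdhga5 were called higher in iEZR_CA at every stage, and Pcdhga8 was called lower at every stage, where 23.3% of all tested genes were called at all 3 stages in the same direction. The limits given above apply to these calls, for Pcdhga5 at T48 also. Pcdhga2 and Pcdhgb8 were called higher in iEZR_CA at ESC and T24 but lower at T48. At T48, Pcdhga2 had 32.0 ± 9.95 in WT and 19.4 ± 2.77 in iEZR_CA (-0.75 ± 0.26, adjusted p = 0.01, but 0.22 without WT replicate 3 and 0.08 with DESeq2). Pcdhgb8 had 62.3 ± 5.10 and 42.9 ± 7.58 at that stage (-0.55 ± 0.17, adjusted p = 0.0049, but 0.051 with DESeq2). Pcdhga1, the second most abundant gamma gene per kilobase, had log2 fold changes between the lines of 0.03, -0.04 and -0.17 at ESC, T24 and T48, none called.

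Whether the change from ESC differed between the lines was tested as the interaction of line and time. At T24, 2 of 18 members were called, both with the more positive change in iEZR_CA, where 38.3% of all genes were called (21.5% positive and 16.9% negative). They were Pcdhgc3, with an interaction of 0.87 ± 0.17 on the log2 scale (adjusted p = 2.7e-05), and Pcdhgb7, with 1.26 ± 0.50 (adjusted p = 0.039). The call of Pcdhgb7 was lost with DESeq2 (adjusted p = 0.13) and on leaving out any of 6 libraries (up to 0.13 without iEZR_CA ESC replicate 2). Pcdhgc3 made up 28.5% ± 1.99 of gamma counts in WT and 21.2% ± 2.68 in iEZR_CA at ESC, 26.6% ± 0.92 and 29.9% ± 0.90 at T24, and 16.1% ± 0.79 and 22.4% ± 0.94 at T48.

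At T48, 8 of 18 members had a called interaction, 1 positive and 7 negative, where 45.8% of all genes were called (25.7% positive and 20% negative), and the median over the 18 was -1.05. The negative interactions were those of Pcdhgb5 (-2.34 ± 0.36, adjusted p = 7.7e-08), Pcdhga8 (-2.26 ± 0.56, adjusted p = 0.00054), Pcdhgb4, Pcdhgc5, Pcdhga2, Pcdhgb8 and Pcdhga12. In these genes, the change between ESC and T48 was lower in iEZR_CA than in WT. Pcdhgb2 had the positive interaction (1.44 ± 0.58, adjusted p = 0.036). Those of Pcdhgb2, Pcdhgb4 and Pcdhgc5 were not called by DESeq2 (adjusted p = 0.1, 0.14 and 0.062) and were lost on leaving out single libraries, with adjusted p up to 0.16 without WT T48 replicate 3 for the first 2 genes and up to 0.24 without iEZR_CA ESC replicate 1 for Pcdhgc5, whose 3 libraries in that group had 24.4, 7.53 and 12.6 normalized counts.

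The beta and alpha members were too low for the test, and their raw counts are given instead. Pcdhb17 had 0, 1 and 0 counts in the WT ESC libraries, 4, 1 and 0 at T24 and 6, 4 and 20 at T48. In iEZR_CA it had 1, 0 and 0 counts at ESC, 1, 0 and 1 at T24 and 5, 6 and 1 at T48. It was above the floor of 3 counts at T48 in all WT libraries and in 2 of iEZR_CA, and 20 of its 30 WT counts at T48 came from 1 library. Scaled for depth, the ratio of its WT counts at T48 (30) to those at ESC (1) was 33.3, with an exact 95% interval of 5.53 to 1360, and the ratio of iEZR_CA (12 counts) to WT at T48 was 0.365 (0.17 to 0.734). These intervals cover counting error alone. Of the 51 raw counts of Pcdhb17, 30 were in WT and 12 in iEZR_CA at T48. Its counts in the ESC and T24 libraries together were below the minimum set for members. Pcdhb17 was thus examined because of its T48 counts, which the intervals and tests against ESC do not take into account. Without a filter on low counts, edgeR called Pcdhb17 higher at T48 than at ESC in WT (adjusted p = 1.3e-06) and in iEZR_CA (adjusted p = 0.022), and lower in iEZR_CA than in WT at T48 (adjusted p = 0.045).

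Pcdhb22, the last beta gene, had 8, 10 and 9 counts in WT ESCs and between 1 and 7 in every library of the other groups. Its ratio of T48 to ESC in WT was 0.575 (exact 95% interval 0.279 to 1.14), which includes 1, and no comparison of it was called without the filter. The sum of all 22 beta genes in WT was 15.2 ± 3.41 at ESC, 8.99 ± 2.64 at T24 and 28.8 ± 8.92 at T48, and in iEZR_CA 9.92 ± 3.93, 8.95 ± 3.43 and 11.9 ± 4.87. Without Pcdhb17 the T48 sums were 19.3 ± 6.68 and 8.61 ± 3.29. The remaining beta members, Pcdhb14, Pcdhb19 and Pcdhb20, did not exceed 4 counts in any library, and Pcdhb14 was called lower in iEZR_CA at T48 without the filter (adjusted p = 0.046).

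Pcdhac2 had 3, 4 and 2 counts in WT ESCs and 13, 3 and 10 at T48, and 1, 0 and 0 in iEZR_CA ESCs and 2, 6 and 6 at T48. The ratio of T48 to ESC was 3.2 in WT (exact 95% interval 1.46 to 7.77) and 11.8 in iEZR_CA (1.8 to 500), where the ESC group had 1 count. Both were called without the filter (adjusted p = 0.022 and 0.008). Of the low C-type gamma genes, Pcdhgc4 had 2 to 10 counts per library, and none of its comparisons was called without the filter.

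Part of the counts reflects how overlapping genes are counted. In its default mode, HTSeq leaves out reads that fall on exons of more than 1 gene, so reads of the constant exons of the alpha and gamma clusters are counted for no member, and ambiguous reads made up 4.51% to 4.76% of each library. Pcdhga10, a gamma gene at 37746993 to 37841873, had 0 counts in all 18 libraries, whereas its neighbours Pcdhgb6 and Pcdhgb7 had 144 and 288. It is the single gene of the family whose 4732 exon bases are all shared with another gene when both strands are counted, and it has 2613 bases of its own when its own strand alone is counted. The gene on its opposite strand, Gm26672, also overlaps Pcdhgb7, Pcdhga11 and Pcdhga12 and had 103 counts. Whether counting used the strand is not given in the sources used here, so a level of Pcdhga10 cannot be read from these counts, and levels per kilobase of Pcdhga11 and Pcdhgc3 depend on it (1256 and 1821 own bases on both strands, 2637 and 3380 on their own strand).

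Non-clustered protocadherins are related receptors encoded outside the clusters, without shared constant exons. Of a list of 12, 6 were tested, and in WT at T48 against ESC 4 were called higher and 1 lower, where 37.1% of all genes were higher and 37.4% lower. Pcdh1 rose in WT from 61.1 ± 6.66 at ESC to 5350 ± 52.3 at T48, and in iEZR_CA from 43.5 ± 17.3 to 2590 ± 58.8 (between the lines at T48, log2 fold change -1.04 ± 0.04, adjusted p = 2.7e-36). Pcdh18 reached 107 ± 11.9 in WT and 24.3 ± 6.59 in iEZR_CA at T48 (-2.08 ± 0.20, adjusted p = 2.4e-14). Pcdh19, an X-linked protocadherin, went the other way. It fell from 289 ± 19.6 to 50.2 ± 7.83 in WT and from 396 ± 19.4 to 119 ± 9.35 in iEZR_CA, and was higher in iEZR_CA at T48 (1.32 ± 0.14, adjusted p = 2e-13).

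Among 22 genes known to act on protocadherin promoters or on DNA methylation and chromatin loops, all 22 were tested and 15, 19 and 17 were called between the lines at ESC, T24 and T48, where 54.5%, 60.9% and 61.1% of all genes were called. At T24, 5 of these were higher and 14 lower in iEZR_CA. Dnmt3a, a de novo DNA methyltransferase, rose in WT from 1230 ± 71.6 at ESC to 21300 ± 306 at T24, and in iEZR_CA from 1880 ± 64.1 to 5740 ± 186 (between the lines at T24, -1.89 ± 0.03, adjusted p = 2.3e-48). Dnmt3b, its relative, stood at 59600 ± 2640 in WT and 26700 ± 885 in iEZR_CA at T48 (-1.15 ± 0.03, adjusted p = 6.8e-29). Dnmt3l, a cofactor of both, stood at 6050 ± 314 and 17000 ± 257 at T48 (1.5 ± 0.04, adjusted p = 5.5e-19). It was also higher in iEZR_CA at ESC (1.77 ± 0.055, adjusted p = 1.4e-17) but lower at T24 (-0.51 ± 0.04, adjusted p = 1.1e-10). Ctcf, which encodes the insulator protein that binds protocadherin promoters, differed by 0.20 ± 0.03 at T48 (adjusted p = 2.8e-08), and Smchd1, a chromatin silencer of the clusters, by 0.00 ± 0.04 (adjusted p = 1). The part of these genes in the protocadherin levels was not tested.

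Of 11 genes for partners and processing of the proteins, 6, 11 and 8 were called between the lines at ESC, T24 and T48, beside the same shares of all genes (54.5%, 60.9% and 61.1%). Adam10, the protease that sheds protocadherin ectodomains, was higher in iEZR_CA at each stage, by 0.61 ± 0.05, 0.71 ± 0.05 and 0.97 ± 0.05 on the log2 scale (adjusted p = 7.9e-14, 2.5e-15 and 2.5e-18). Ptk2b, a kinase that protocadherins bind, was lower, by -1.45 ± 0.11, -1.0 ± 0.07 and -0.78 ± 0.09 (adjusted p = 3.5e-18, 1.6e-19 and 1e-11). Within 500000 bases of the family, 32 protein-coding genes have symbols other than those of the family. They include Gm42416, Gm37013 and Gm37388, which overlap exons of the clusters and had 0 counts, and Pcdh1 and Pcdh12 of the non-clustered list. Of the 32, 25 were tested and 10 were called at T48, 5 higher and 5 lower, where 61.1% of all genes were called. Their median log2 fold change was 0.03. Over the 409 tested genes of chromosome 18 outside the family, the median between the lines was -0.03, -0.03 and -0.01 at ESC, T24 and T48.

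Marker lists of cell states also differed between the lines. The 6 markers of pluripotent ES cells summed to 16800 to 17900 normalized counts in WT at T48 and 23500 to 24900 in iEZR_CA. Of these, 5 were called higher in iEZR_CA and 1 lower, where 61.1% of all genes were called (31% higher and 30.1% lower). The 10 neural markers summed to 3710 to 3780 in WT and 1530 to 1570 in iEZR_CA at T48. Of the 8 tested, 7 were called lower and 0 higher, beside the same shares of all genes. At ESC the 10 neural markers already summed to 3230 to 3310 in WT and 2140 to 2230 in iEZR_CA. Neurog2 was at or under 3 counts in every group and Dcx in every group except those at T48. The 8 primitive endoderm markers summed to 241 to 265 in WT and 750 to 813 in iEZR_CA at ESC. At that stage 2 were called higher and 2 lower in iEZR_CA, where 54.5% of all genes were called. Their log2 fold changes ran from -2.52 to 3.81, with a median of 0.1. At T48 the sums were 364 to 408 and 257 to 292, with 1 marker called higher and 5 lower. The 5 mesoderm markers summed to 136 to 140 in WT and 243 to 282 in iEZR_CA at T48. Of the 4 tested, Eomes alone was called, higher in iEZR_CA, and the median log2 fold change was -0.2. The 6 fibroblast markers summed to 570 to 637 in WT and 355 to 433 in iEZR_CA at T48. Of the 4 tested, 1 was called higher and 3 lower. Mesp1 (mesoderm) and Postn (fibroblast) were at or under 3 counts in both lines. The part of these cell states in the protocadherin levels was not tested.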

How the data were processed

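Paired-end polyA RNA-seq was read from 18 libraries. The authors trimmed reads (Trim Galore 0.6.5), aligned them with GSNAP to GRCm38, and used HTSeq with the Ensembl 81 genes. They deposited raw counts, neither normalized nor pooled. Ambiguous and non-gene reads (21.3% to 24.3% of a library) and the 92 spike-in sequences were left out of library sizes. Symbols and coordinates came from GENCODE M21, which held 53620 of the 53801 gene identifiers. Groups came from the labels, which give no replicate number, so replicates are numbered in accession order. The study calls them biological replicates, but separate cultures are not described, so p-values measure the spread between these libraries.

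Counts of all 18 libraries were fitted with edgeR 4.0.16 in R 4.3.3 (filterByExpr, TMM factors 0.975 to 1.03, 1 term per group, 12 residual degrees of freedom, robust quasi-likelihood test, 9 contrasts). The common biological coefficient of variation was 2.98%. SEs were derived from fold change and F. Alternatives were the DESeq2 1.42.0 Wald test with line, time and their interaction (the design of the study), DESeq2 size factors, spike-in scaling, no filter, the compared groups alone, and leaving out each library. The fit was tested on simulated counts. Besides all C types and Pcdhb17 and Pcdhb22, genes were named by the 3 largest called rises and falls per contrast at a mean of at least 20 normalized counts and by the 5 highest members per cluster. Pcdhga5, Pcdhgb4, Pcdhgb6, Pcdhga7, Pcdhga9 and Pcdhga10 were named after their values were seen. The members and all gene lists were chosen with earlier results of these data known. Sequences of the family are not reported here. Ratios of low counts have exact (Clopper-Pearson) 95% intervals from scipy 1.17.1.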

Additional observations from a re-analysis of the deposited data

Results flagged for a closer look

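The change from ESC differed between the lines, by the interaction term of the edgeR quasi-likelihood test, in 10 instances. They were 2 of 18 tested members at T24 and 8 of 18 at T48, where 38.3% and 45.8% of all genes were called. At T24 the interaction was 0.87 on the log2 scale for Pcdhgc3 and 1.26 for Pcdhgb7. At T48 it was -2.34 for Pcdhgb5, -2.26 for Pcdhga8, -1.63 for Pcdhgb4, -1.39 for Pcdhgc5, -1.39 for Pcdhga2, -1.38 for Pcdhgb8, -1.32 for Pcdhga12 and 1.44 for Pcdhgb2. DESeq2 did not call the interactions of Pcdhgb7, Pcdhgb4, Pcdhgc5 and Pcdhgb2, and these were also lost on leaving out single libraries. Every group had 3 libraries, too few for a test of single outlying libraries.

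Genes outside the family on the opposite strand also had reads. Gm26672, opposite Pcdhga10, Pcdhgb7, Pcdhga11 and Pcdhga12, had 103 raw counts, of which 34, 6 and 8 were in WT at ESC, T24 and T48 and 23, 15 and 17 in iEZR_CA. BC037039, opposite Pcdhgc3, had 23 raw counts, of which 10 were in WT at T48. Their part in the counts of the genes they overlap was not tested.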

How the results depend on the processing

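Of 77 called pairs of member and comparison, none changed direction under any alternative that gave a value. The DESeq2 Wald test called 44 of them, spike-in scaling 53, the fit without a filter 67 and the fit with DESeq2 size factors 76. The fit of the compared groups alone called all 64 of the pairs it tested, its own filter having left out the rest. Leaving out each library in turn, 42 kept their call throughout, and 37 kept it under all alternatives that gave them a value. With DESeq2, the members called between the lines went from 6 to 1 at ESC, from 7 to 4 at T24 and from 10 to 6 at T48, those at T24 against ESC in WT from 12 to 6, and the interactions from 2 to 1 at T24 and from 8 to 5 at T48. Spike-in scaling and the fit without a filter each gave 4 between the lines at T24 and 1 interaction at T24. Leaving out 1 library gave 4 to 6 between the lines at T24 and 1 to 2 interactions at T24. Spike-in scaling moved the median of all genes by 0.13 and 0.27 (log2) at T24 and T48 against ESC in WT and by 0.14 and 0.26 in iEZR_CA. Depth limits the beta and alpha genes most, since a few reads per library set their values. No paired analysis was possible because the labels give no replicate number.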
